A study of Drosophila melanogaster with 4 samples.

Results

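The cytosolic ribosomal protein genes of Drosophila melanogaster were followed in ovaries of piwi-embKD and white-embKD flies. Genes were taken as members when their RefSeq symbol began with RpL or RpS followed by a digit or by P, which matched 92 of the 14775 genes in the tables, with 191 annotated transcripts. Of the 92 symbols, 54 named proteins of the large subunit and 38 named proteins of the small subunit. A test across all features reached 85 of the 92, and 7 lay below its filter on low values. The symbol rule itself uses no measured value.

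Total RNA depleted of ribosomal RNA was sequenced from 4 ovary libraries, 2 per group, which the labels describe as independent biological replicates. The piwi-embKD flies were vasa-GAL80[ts]/+;;da-GAL4/shpiwi, and the white-embKD flies were vasa-GAL80[ts]/+;;da-GAL4/shwhite. Both groups thus carried GAL4 driven by daughterless (da), a promoter active in most cells, the GAL4 repressor GAL80[ts] driven by the germline promoter vasa, and a hairpin, which targeted piwi in one group and the eye-colour gene white in the other. Flies were maintained at 18 °C and embryos were shifted to 28 °C, where GAL80[ts] no longer holds GAL4 inactive. Each group had its own hairpin, so effects of the 2 constructs other than on their targets cannot be told apart from the loss of piwi.

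A ribosome holds 1 copy of nearly every ribosomal protein, apart from the acidic stalk proteins RpLP1 and RpLP2, which are present in several copies. In flies, most of the genes have a short 5′ UTR and a TCT initiator at the start of the transcript, and their mRNAs are translated according to growth signals through the TOR kinase. Loss of 1 gene copy of many of them gives the Minute phenotype of slow growth and thin bristles. In the ovary, nurse cells make the ribosomes that load the egg, and the surrounding follicle cells make their own.

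The deposited unit, called signal here, is an effective count multiplied by a normalization factor. The 4 columns summed to between 970339.8 and 1017515, and their estimated depth was 16194219 to 20025084 effective counts. A gene at 0 could have held up to 3 counts, a signal of 0.148 to 0.189, for counting error only. The piwi gene had a signal of 238 and 121 in the piwi-embKD libraries, against 410.0 and 401 in the white-embKD libraries (log2 change -1.25, standard error 0.29, limma adjusted p = 0.0572). The white gene (w) had 3.34 and 2.87 in piwi-embKD, against 1.35 and 1.19 in white-embKD (log2 change 0.86, SE 0.25, limma adjusted p = 0.103). Both hairpin targets were lower where they were targeted, and neither passed the threshold. The piwi gene passed with the replicate block (limma adjusted p = 0.000900), with the stricter filter (0.0435) and without either piwi-embKD library (0.000108 and 0.00225), and w passed with no trend (0.0239) and without either piwi-embKD library (0.0348 and 0.0327). Transposon sequences took 2.58% and 3.61% of the signal in piwi-embKD, against 0.395% and 0.406% in white-embKD. The piwi-embKD pair correlated at r = 0.976 across features on the log2 scale, and the white-embKD pair at r = 0.995.

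No ribosomal protein gene passed the threshold of adjusted p under 0.05 in either direction, out of 85 tested with limma (Benjamini-Hochberg over 8172 features). Across all features, 5.04% were called higher in piwi-embKD and 1.65% lower. At an unadjusted p under 0.05, 10 ribosomal protein genes were higher and 0 were lower, against a background of 13.2% and 11.8%. The lowest adjusted p of any member was 0.0803, for RpL8.

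The differences were small, and most had a positive sign. The log2 change was above 0 in 78 of the 85 genes (91.8%), against 44.3% of all features, and its median was 0.14, against -0.038 for all features. The quartiles of the ribosomal protein genes were 0.071 and 0.18, and those of all features were -0.19 and 0.18. The members' ratios of piwi-embKD to white-embKD means ran between 0.915 and 1.38. Members share libraries and scaling, so their number does not stand for replicates.

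**Figure D1:**
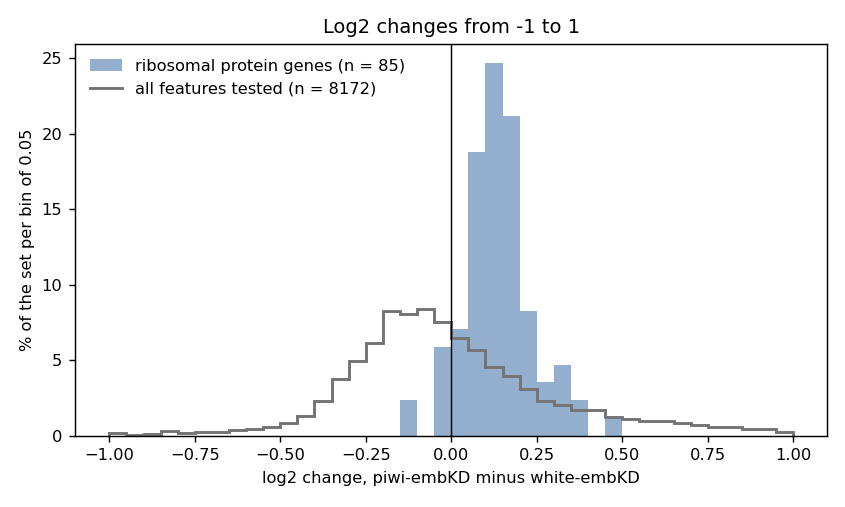
Distribution of the log2 change (piwi-embKD over white-embKD) of the 85 tested ribosomal protein genes and of all 8172 features tested, as the percentage of each set per bin of 0.05, with features beyond -1 and 1 not drawn. The ribosomal protein genes form a narrow peak with a median of 0.14, and all features spread more widely around a median of -0.038.

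The fit gave each gene an interval, with 1 variance for both groups and the scaling of the libraries taken as exact. The 95% interval of the log2 change lay within 1.5-fold in both directions for 79 of the 85 genes, against 60.9% of all features. All 85 lay within 2-fold, against 6799 of the 8172 features. The 6 genes whose interval passed 1.5-fold were RpL23A, RpL28, RpL3, RpL4, RpL8 and RpS2, and in each the upper bound was the one that passed.

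The positive signs came more from one piwi-embKD library than from the other. Replicate 1 lay above both white-embKD libraries in 80 of the 85 genes, against 40.5% of all features. Replicate 2 did so in 44 genes, against 37.6% of all features, and lay below both in 17. The median log2 difference from the white-embKD mean was 0.21 in replicate 1 and 0.034 in replicate 2, where all features had -0.009 and -0.057.

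Both piwi-embKD libraries lay above both white-embKD libraries in 43 genes, against 25.9% of all features. They lay below both in 1 gene, RpL24-like, against 33.1% of all features, and the groups overlapped in 41. Replicate 1 exceeded replicate 2 in 77 of the 85 genes, against 58.6% of all features. The absolute difference within a group had a median of 0.17 on the log2 scale in piwi-embKD and 0.059 in white-embKD. Over all features these medians were 0.19 and 0.085, so the members were not more variable within a pair than other features. The spread of the members within the piwi-embKD pair was larger than their median change itself.

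**Figure D2:**
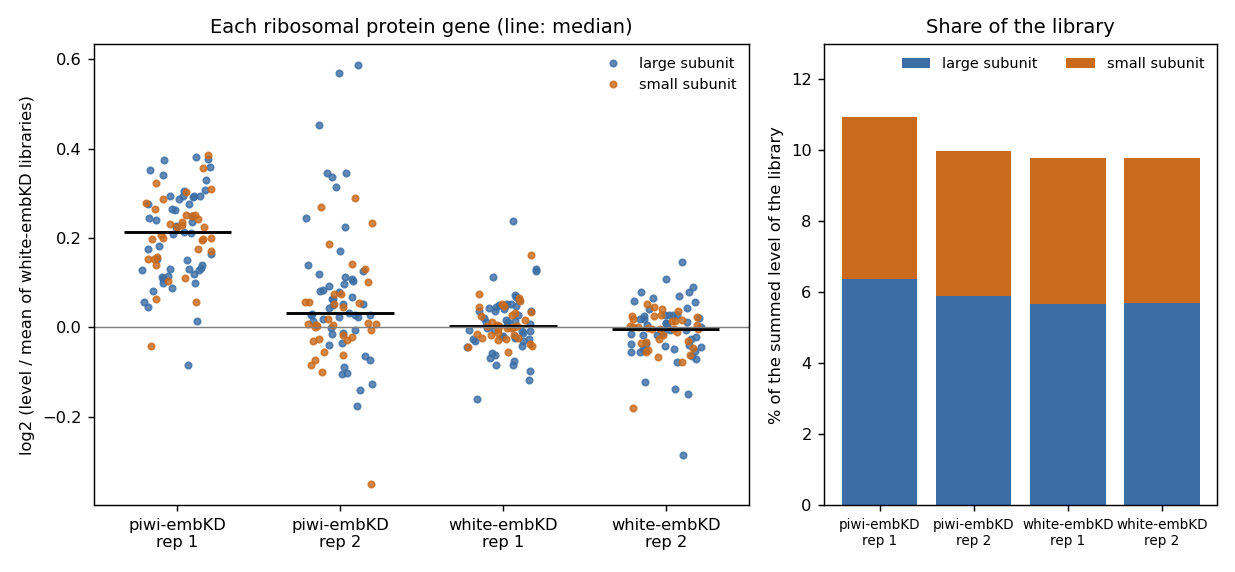
Left, log2 signal of each of the 85 tested ribosomal protein genes relative to the white-embKD mean, by library, with the median as a line, which stands at 0.21 in piwi-embKD replicate 1 and at 0.034 in replicate 2. Right, the share of each library's summed signal held by large-subunit and small-subunit genes as stacked bars, with totals of 10.9% and 9.99% in piwi-embKD, against 9.78% and 9.80% in white-embKD.

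Summed over all members, ribosomal protein mRNAs held 10.9% and 9.99% of the signal in the piwi-embKD libraries, against 9.78% and 9.80% in the white-embKD libraries. Both piwi-embKD libraries were above both white-embKD libraries, and the mean was 10.5% ± 0.677 in piwi-embKD and 9.79% ± 0.0147 in white-embKD (SD, n = 2 each), a ratio of 1.07. An exact two-sided permutation test gave p = 0.33, the smallest that 2 libraries against 2 allow. With transposon sequences left out of the total, the shares were 11.2% and 10.4% in piwi-embKD, against 9.82% and 9.84% in white-embKD.

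The groups also differed in marker genes of several tissues, among them the gut, which is not part of the ovary. All 11 eggshell genes were called higher, where 5.04% of all features were called higher and 1.65% lower. The eggshell genes had a summed signal of 9157 and 12570.2 in piwi-embKD, against 3565 and 3458 in white-embKD. Follicle cell genes (6 of 8 called higher) summed to 3483 and 3545 in piwi-embKD, against 1747 and 1662 in white-embKD. Most of this sum came from the yolk protein genes Yp1, Yp2 and Yp3. In piwi-embKD, Yp1 had 1107 and 1094, Yp2 1381 and 1453, and Yp3 617 and 580.2. In white-embKD, Yp1 had 472 and 447, Yp2 629.8 and 622, and Yp3 259 and 249.8. The follicle cell genes cad and mirr were not called (log2 change -0.012 and 0.46). Muscle genes (4 of 8 tested called higher) summed to 310.8 and 246.8 in piwi-embKD, against 176.7 and 169.3 in white-embKD. Gut genes (5 of 10 called lower) summed to 53.85 and 0.7390 in piwi-embKD, against 194.8 and 174.6 in white-embKD. Of 7 germline genes, limma called 0, with 1 higher and 2 lower at an unadjusted p under 0.05, against 13.2% and 11.8% of all features. The germline sum was 4638 and 4925 in piwi-embKD, against 5648 and 5450.0 in white-embKD. Most of this sum came from osk and nanos. In piwi-embKD, osk had 2137 and 2341 and nanos 1070.2 and 1006. In white-embKD, osk had 2914 and 2670.0 and nanos 1334 and 1417. Both piwi-embKD libraries lay below both white-embKD libraries in 3 of the 7 genes, against 33.1% of all features. They lay above in 1, otu, against 25.9% of all features, and the groups overlapped in 3. In whole ovaries, fewer cells of a type and less RNA per cell cannot be told apart, and the part of these shifts in the ribosomal protein values was not tested.

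Proteins of the large subunit had a median log2 change of 0.15 over 51 tested genes. Of these, 46 were above 0, against 44.3% of all features. Both piwi-embKD libraries lay above both white-embKD libraries in 27, against 25.9% of all features. Large-subunit genes held 6.37% and 5.90% of the signal in piwi-embKD, against 5.68% and 5.69% in white-embKD. Among them were the members with the most positive changes. RpL23A, a protein near the exit of the peptide tunnel, had a signal of 286 and 331 in piwi-embKD, against 244 and 201 in white-embKD. The groups did not overlap, but the members of each pair differed, and the log2 change of 0.47 (SE 0.13, 95% interval 0.15 to 0.79) had an adjusted p of 0.0945 by limma.

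RpL8 and RpL3, which reach towards the peptidyl transferase centre, had pairs closer together. RpL8 had 1122 and 1094 in piwi-embKD, against 843 and 878 in white-embKD (log2 change 0.36, SE 0.095, 95% interval 0.13 to 0.59, limma adjusted p = 0.0803). RpL3 had 2455 and 2389 in piwi-embKD, against 1982 and 1802 in white-embKD (log2 change 0.36, SE 0.11, limma adjusted p = 0.116). RpL4, which lines the peptide tunnel, showed the same sign with a wide gap inside the piwi-embKD pair, at 1142 and 1602, against 1020.4 and 1111 in white-embKD. Its log2 change was 0.34 (SE 0.17, 95% interval -0.071 to 0.76).

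The P proteins form the stalk that recruits elongation factors to the large subunit. RpLP0, the stalk base, had 1691 and 1813 in piwi-embKD, against 1472 and 1379.6 in white-embKD (log2 change 0.30, limma adjusted p = 0.154). RpLP1 had 1573 and 1596 in piwi-embKD, against 1316 and 1251 in white-embKD (log2 change 0.30, limma adjusted p = 0.132). The groups were apart for both of these genes. RpLP2, at 3237 and 2892 in piwi-embKD, against 2628 and 2908 in white-embKD, overlapped between the groups (log2 change 0.15).

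At the other end of the large subunit, RpL29 had 942 and 773 in piwi-embKD, against 869 and 879.7 in white-embKD, and RpL36 had 847 and 772 in piwi-embKD, against 808 and 833 in white-embKD. Both overlapped between the groups, with log2 changes of -0.035 and -0.021. RpL41, the smallest ribosomal protein, had 3505 and 3266 in piwi-embKD, against 3288 and 3016 in white-embKD. RpL10, which joins the subunit late in its maturation, had 3185 and 2617 in piwi-embKD, against 2668 and 2589 in white-embKD. For RpL41 and RpL10 the groups overlapped too. RpL21 had 2694 and 2438 in piwi-embKD, against 2321 and 2165 in white-embKD, and did not overlap (log2 change 0.19, limma adjusted p = 0.343).

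Proteins of the small subunit had a median log2 change of 0.11 over 34 tested genes. Of these, 32 were above 0, against 44.3% of all features. The piwi-embKD pair lay above the white-embKD pair in 16, against 25.9% of all features. Small-subunit genes held 4.58% and 4.09% of the signal in piwi-embKD, against 4.10% and 4.11% in white-embKD. In this share piwi-embKD replicate 2 lay below both white-embKD libraries. The sum over small-subunit genes divided by the sum over large-subunit genes was 0.719 and 0.694 in piwi-embKD, against 0.722 and 0.723 in white-embKD. This ratio averaged 0.706 ± 0.0179 in piwi-embKD and 0.723 ± 0.00103 in white-embKD (SD, n = 2 each, exact permutation p = 0.33).

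RpS2, which sits at the mRNA entry channel, had the most positive change of the small subunit. Its signal was 1726 and 1592 in piwi-embKD, against 1390.3 and 1251 in white-embKD (log2 change 0.33, SE 0.11, 95% interval 0.059 to 0.60, limma adjusted p = 0.140). RpS3A, the only member on chromosome 4, had 2325 and 2114 in piwi-embKD, against 2159 and 2064 in white-embKD. The groups overlapped for RpS3A (log2 change 0.071). The small-subunit proteins sta (RpSA) and Rack1, whose symbols the rule does not match, had log2 changes of 0.20 and 0.18 (limma adjusted p = 0.280 and 0.305), and the groups did not overlap for either.

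**Figure D3:**
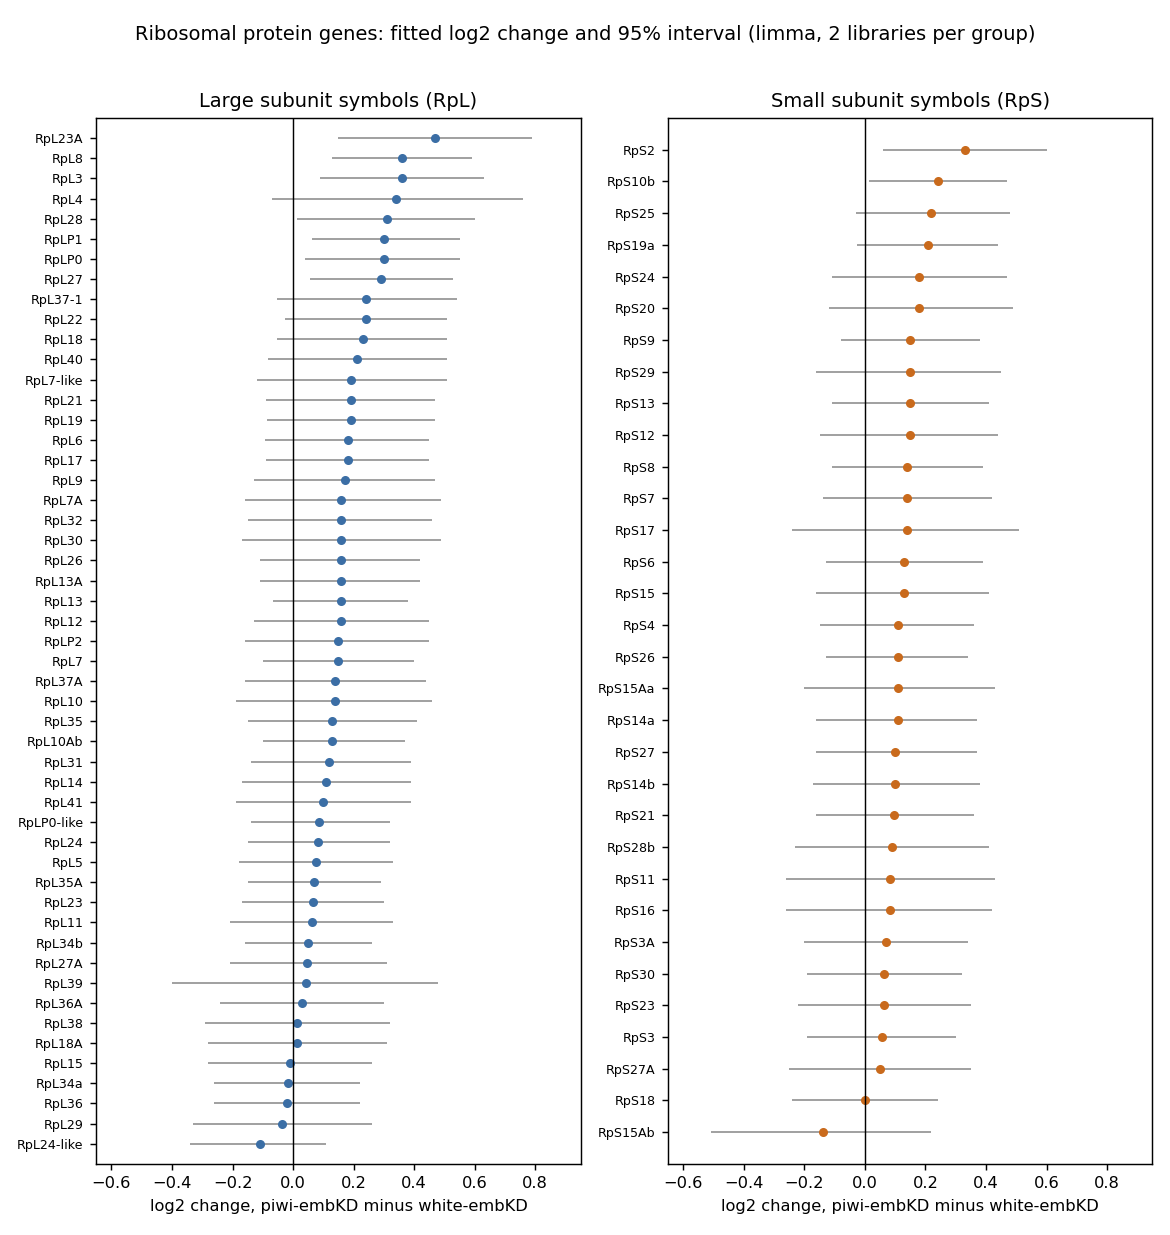
Log2 change of 83 of the 85 tested ribosomal protein genes (piwi-embKD over white-embKD), with 95% intervals from limma, large subunit and small subunit shown separately. The changes run between -0.14 (RpS15Ab) and 0.47 (RpL23A). Of the 83 drawn intervals, 9 lie wholly above 0, against 13.2% of the intervals of all features tested.

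Flies carry more than 1 gene for 10 of the ribosomal proteins, and the shares of the copies were compared within a protein. RpL34b gave 81.3% and 81.8% of the RpL34 signal in piwi-embKD, against 81.4% and 80.3% in white-embKD. RpS14b gave 31.1% and 30.3% of RpS14 in piwi-embKD, against 31.6% and 29.9% in white-embKD. RpS14a and RpS14b are near-identical neighbours on the X chromosome, so the division of reads between them is uncertain. RpS15Ab gave 2.61% and 2.38% of RpS15A in piwi-embKD, against 2.97% and 2.96% in white-embKD. RpS15Ab itself had the most negative log2 change of all members, with 60.8 and 45.6 in piwi-embKD, against 58.1 and 58.2 in white-embKD (log2 change -0.14, 95% interval -0.51 to 0.22, limma adjusted p = 0.585), and the groups overlapped.

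**Figure D4:**
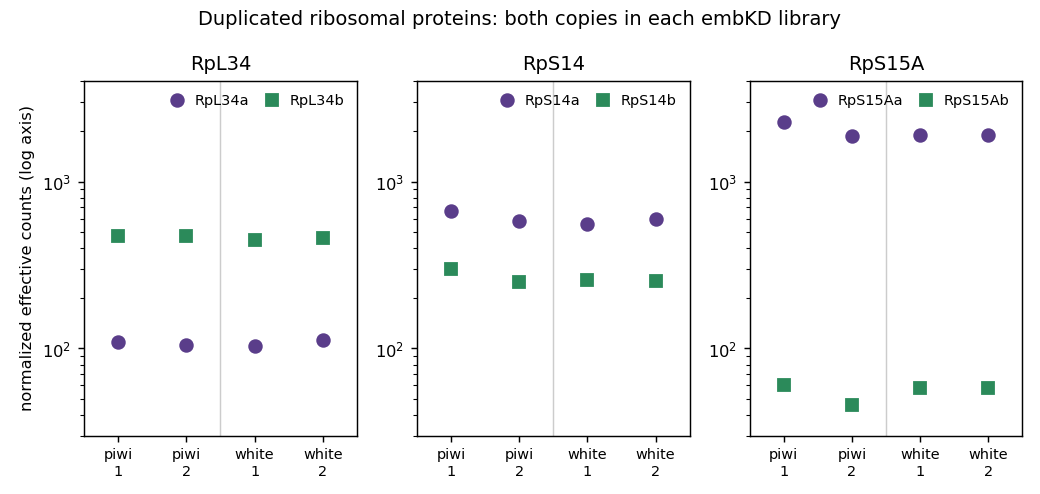
Signal of both copies of RpL34, RpS14 and RpS15A in each library (log axis), with the piwi-embKD libraries left of the white-embKD libraries and a grey line between the groups. RpS15Ab stands at 60.8 and 45.6 in piwi-embKD, against 58.1 and 58.2 in white-embKD, and overlaps between the groups.

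In 6 further duplicated proteins, 1 copy gave almost the whole signal and its partner lay below the filter. RpL22, RpL10Ab, RpL37-1, RpS10b, RpS19a and RpS28b were the abundant copies, with means of 642 to 1485 in piwi-embKD and 542 to 1387 in white-embKD. The 7 members below the filter were RpL10Aa, RpL22-like, RpL37-2, RpS10a, RpS19b, RpS28-like and RpS28a. RpL10Aa and RpS28a were at 0 in all 4 libraries. RpS19b, known from early germ cells, had the highest signal of the 7, at 0.745 and 0.845 in piwi-embKD, against 0.593 and 0.420 in white-embKD. RpL22-like, which is known from the male germline, had 0.0801 in 1 piwi-embKD library and 0 in the other 3 libraries. Of 8 testis genes, 6 were at 0 in all 4 libraries.

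The rule also matched 3 genes that by homology encode maturation factors of the large subunit in place of its structural proteins. RpL24-like, the counterpart of yeast Rlp24, had 263 and 253 in piwi-embKD, against 268 and 290.1 in white-embKD (log2 change -0.11, limma adjusted p = 0.480). It was the only member with both piwi-embKD libraries below both white-embKD libraries. RpLP0-like, the counterpart of yeast Mrt4, had 109 and 101 in piwi-embKD, against 98.8 and 99.0 in white-embKD. RpL7-like, related to yeast Rlp7, had 227 and 196 in piwi-embKD, against 202 and 168 in white-embKD, with overlap. Without these 3 genes the members' share of the signal was 10.9% and 9.94% in piwi-embKD, against 9.72% and 9.74% in white-embKD.

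Levels were compared between proteins as signal per kb of mRNA, with copies of a protein summed and the maturation factors left out, which gave 78 proteins. The median was 1709 and 1471 per kb in piwi-embKD, against 1462 and 1435 per kb in white-embKD. Most proteins lay within 2-fold of their library's median, 66 and 69 of 78 in piwi-embKD and 66 and 68 in white-embKD. RpL23A was the lowest in every library, at 244 and 283 per kb in piwi-embKD, against 209 and 172 per kb in white-embKD. RpL41 was the highest, at 10954 and 10206 per kb in piwi-embKD, against 10274 and 9425 per kb in white-embKD. The length used was the median over a gene's annotated coding transcripts, 320 nt for RpL41, and its part in these ranks was not tested. The small subunit was the more even of the subunits, with a coefficient of variation across proteins of 36.3% and 33.1% in piwi-embKD, against 36.1% and 36.3% in white-embKD. The large subunit, which holds RpL41, had 83.2% and 83.5% in piwi-embKD, against 88.4% and 83.2% in white-embKD.

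Several features that the symbols do not encode were also examined in the members. Their mRNAs had a median length of 709 nt and a median 5′ UTR of 69.5 nt, where the 7702 tested coding genes had 1958 nt and 152 nt. Genes for snoRNAs, which guide the modification of ribosomal RNA, lay inside 28 of the 85 members (32.9%), against 1.05% of the tested coding genes. The median log2 change was 0.14 in the 28 hosts and 0.13 in the other members, so hosts and non-hosts had close medians. Members stood on every major arm. The median log2 change was 0.082 over 19 genes on 2R and 0.14 to 0.15 on 2L, 3L, 3R and X, and the single gene on chromosome 4 had 0.071.

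Within the members, longer mRNAs had more positive changes in one piwi-embKD library. Spearman's rho between mRNA length and the log2 difference from white-embKD was 0.47 in replicate 2 and 0.11 in replicate 1, over 85 genes that share libraries and depth. The 7702 coding genes gave 0.33 in replicate 2 and -0.11 in replicate 1. In replicate 2 the 22 shortest members (288 to 613 nt) had a median of -0.009 and the 21 longest (912.5 to 1512 nt) a median of 0.10. In replicate 1 these medians were 0.19 and 0.25. All 2647 tested genes in the members' length range had medians of 0.023 in replicate 1 and -0.16 in replicate 2, below the 0.21 and 0.034 of the members. The part of mRNA length in the difference between the piwi-embKD replicates was not tested.

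**Figure D5:**
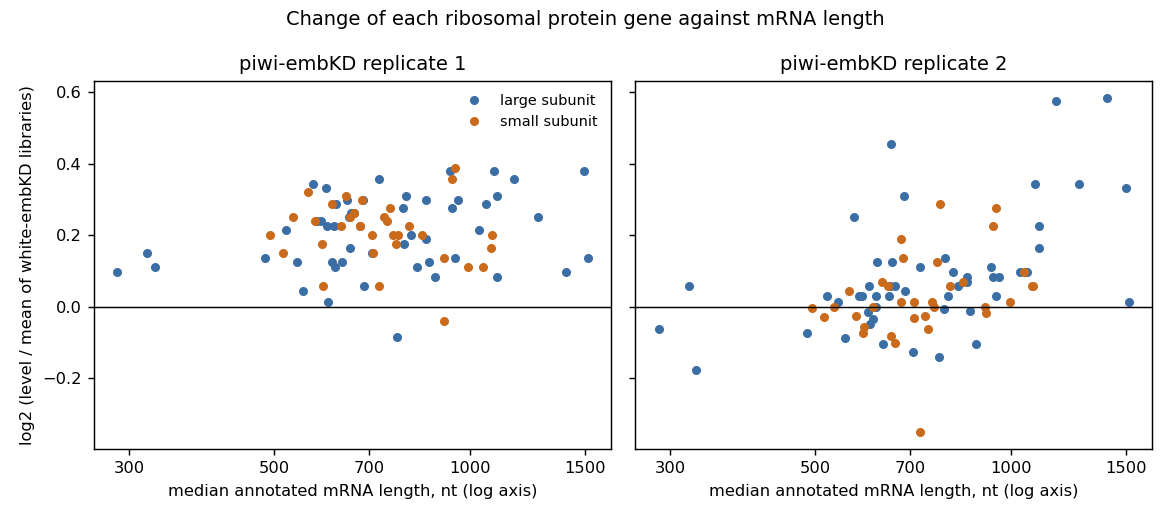
Log2 signal of each tested ribosomal protein gene relative to the white-embKD mean, against its median annotated mRNA length in nt (log axis), for piwi-embKD replicates 1 and 2, with the subunits in different colours. Spearman's rho across the 85 genes is 0.11 in replicate 1 and 0.47 in replicate 2.

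The use of transcripts within a gene was mostly stable. Among 55 members with more than 1 annotated transcript, 54 had the same leading transcript in all libraries, and in 53 the leading share moved by under 5 points between groups, with a median of 0.498 points. Of the 175 member transcripts tested with limma, 0 were called in either direction, against 0.615% of all transcripts and transposons, and 19 were higher and 1 lower at an unadjusted p under 0.05, against 8.52% and 6.94%. The exceptions, chosen after their values were seen, were RpL13 and RpS21. In RpL13 the transcript NM_078806 gave 74.3% and 40.2% of the signal in piwi-embKD, against 33.6% and 33.4% in white-embKD. The piwi-embKD pair was thus far apart, and replicate 2 stood nearer to the white-embKD libraries than to replicate 1. The gene as a whole had 844 and 823 in piwi-embKD, against 761 and 734 in white-embKD. The leading transcript of RpS21 gave 47.4% and 50.0% in piwi-embKD, against 51.3% and 57.4% in white-embKD.

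Genes that work with ribosomal proteins were examined as 3 lists. Of 37 translation factors, limma called 0, against 6.69% of all features in either direction. At an unadjusted p under 0.05, 1 was higher and 0 were lower, against 13.2% and 11.8% of all features. The median log2 change of the list was 0.097, with 29 above 0, against 44.3% of all features. The largest differences were in eIF5B, the subunit joining factor, at 165 and 234 in piwi-embKD, against 160.4 and 167 in white-embKD, and in eIF5, which triggers GTP hydrolysis at the start codon, at 558 and 482 in piwi-embKD, against 608 and 624 in white-embKD. The groups overlapped for eIF5B and not for eIF5. Without piwi-embKD replicate 1, both passed the threshold, with log2 changes of 0.52 for eIF5B and -0.35 for eIF5 (limma adjusted p = 0.00532 and 0.0153).

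Of 24 ribosome biogenesis factors, limma called 0, against 6.69% of all features in either direction. At an unadjusted p under 0.05, 3 were higher and 1 lower, against 13.2% and 11.8% of all features. The median log2 change of the list was 0.079, with 19 above 0, against 44.3% of all features. Fib, the rRNA methyltransferase fibrillarin, had 122 and 179.6 in piwi-embKD, against 98.5 and 94.3 in white-embKD (log2 change 0.61, limma adjusted p = 0.108). Fib passed the threshold with the replicate block (limma adjusted p = 0.0239), without piwi-embKD replicate 1 (log2 change 0.89, limma adjusted p = 0.00124) and without piwi-embKD replicate 2 (log2 change 0.34, limma adjusted p = 0.0327). Nopp140, a nucleolar chaperone, had 393 and 235 in piwi-embKD, against 203 and 229 in white-embKD (log2 change 0.49, limma adjusted p = 0.247), and passed without piwi-embKD replicate 2 (log2 change 0.87, limma adjusted p = 0.00464). The piwi-embKD pair was wide apart in both genes.

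Of 25 genes that control growth and ribosomal protein synthesis, limma called 2 higher and 0 lower, against 5.04% and 1.65% of all features. At an unadjusted p under 0.05, 4 were higher and 3 lower, against 13.2% and 11.8% of all features. The median log2 change of the list was -0.085. Its largest change was in Thor, named after its values were seen, which was not called. Thor had 5.27 and 7.08 in piwi-embKD, against 2.25 and 3.23 in white-embKD (log2 change 0.94, limma adjusted p = 0.0822). The gene larp, whose mammalian counterpart binds ribosomal protein mRNAs, rose, with 411 and 468 in piwi-embKD, against 306 and 298 in white-embKD (log2 change 0.54, SE 0.10, limma adjusted p = 0.0327). The gene raptor, a subunit of TOR complex 1, rose as well, with 139.7 and 165 in piwi-embKD, against 107 and 104 in white-embKD (log2 change 0.52, SE 0.11, limma adjusted p = 0.0481). Without either white-embKD library the adjusted p was 0.273 and 0.372 for larp, and 0.309 and 0.424 for raptor. Trf2, M1BP and Dref, named after their values were seen because they act at ribosomal protein or growth gene promoters, had log2 changes of -0.19, -0.27 and -0.36. None of these was called (limma adjusted p = 0.306, 0.265 and 0.0631). For each, both piwi-embKD libraries lay below both white-embKD libraries, as in 10 of the 25 listed genes and 33.1% of all features. Both lay above in 6 of the 25, against 25.9% of all features.

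The calls depended on which piwi-embKD library was present, with the lone library assumed to vary like the white-embKD pair. Without piwi-embKD replicate 1, 8 ribosomal protein genes were called higher (16.0% of all features) and 1, RpS15Ab, lower (18.0% of all features). Without piwi-embKD replicate 2, 11 were called higher (9.86% of all features) and 0 lower (7.62% of all features), and at an unadjusted p under 0.05 limma had 43 higher and 0 lower in that fit, against 18.2% and 17.7% of all features. RpL8 had log2 changes of 0.35 without replicate 1 and 0.38 without replicate 2. The median log2 change of the members was 0.034 without replicate 1 and 0.21 without replicate 2.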

How the data were processed

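Total RNA of 4 ovary libraries was compared (4 µg input and paired 150 nt reads, per the labels' protocols). The authors deposited 1 table per library whose signal is, per the file headers, the effective count of eXpress after scaling by a normalization factor. The submitters' processing notes name dm3, Bowtie2, STAR and Cufflinks without roles. Which annotation and strand setting were used was not given in the sources used here, nor was the factor's source. Depth assumes that the smallest step of a column is 1e-06 of a count.

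Of 29637 targets, 126 were transposons and 29511 were transcripts, of which 28233 (95.7%) were matched to symbols with a RefSeq Release 6 table, used for names and arms only. Gene structure came from the Ensembl BDGP6 annotation. Values were summed per gene. Unmatched transcripts kept their own row. Low values were not whole multiples of 1 count (1.95% to 2.22% lay within 0.01 of one), so a trended limma fit (version 3.58.1, R 4.3.3) was made on log2(signal + 0.995) for the 8172 features with a mean of at least 0.995. Fold changes on this scale understate low genes. P-values are two-sided and Benjamini-Hochberg adjusted over all features, with a threshold of 0.05. Single values per library had exact permutation tests. The procedure was tested on simulated data.

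Members and lists were chosen with earlier results of these data known. Members were named if called, among the 5 highest in level, among the 5 most positive or 5 most negative, a duplicated copy, a stalk protein or below the filter. Of other lists, up to 6 called genes were named, or else the 2 with the largest change. The hairpin targets, sta and Rack1 were also named. Pseudocounts, filters, scalings, unsummed transcripts, summed copies, a replicate block and each library left out were tried. The results of 1 duplicated protein are not reported here.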

Additional observations from a re-analysis of the deposited data

How the results depend on the processing

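The median log2 change of the ribosomal protein genes stayed positive under all alternatives run, between 0.034 and 0.21, and no ribosomal protein gene was called except when a piwi-embKD library was left out (0 to 11 higher and 0 to 1 lower over the libraries left out). Over all features, 412 were higher and 135 lower. These counts were 71 and 15 with no filter, 81 and 10 with transcripts not summed, and 192 to 1310 and 23 to 1474 with 1 library left out. The replicate block gave 594 higher and 233 lower features, and 0 ribosomal protein genes in either direction. The samples share only a replicate number, with no pairing in the labels, and same-numbered deviations correlated at 0.062 over all features and at 0.12 over the ribosomal protein genes, for 2 pairs. With libraries left out, calls numbered 0 to 4 of 37 translation factors and 0 to 11 of 25 growth control genes. They numbered 0 to 5 of 24 biogenesis factors (1, Fib, with the replicate block). Of all features, 16.0% were called higher and 18.0% lower without piwi-embKD replicate 1, and 9.86% and 7.62% without piwi-embKD replicate 2. Each such fit leaves 1 library in a group, so these counts are not read as changes of the lists. The 2 growth control calls became 1 with the smaller pseudocount, with median-of-ratios scaling, with TMM scaling or with the total without transposons, and 0 with no filter or no trend. The adjusted p of larp was 0.115 with no filter and 0.0720 with no trend. The cause was not tested. Of 545 values for named genes under alternatives, 509 kept their side of the threshold, 24 passed it, 12 fell short of it and none changed direction while called. With 2 libraries a group, an exact test over libraries cannot go below p = 0.33.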
